A study of Mus musculus with 6 samples.

Results

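Hydrogen sulfide and thiosulfate are small sulfur compounds that cells make from cysteine and burn in mitochondria, and 7 genes for the enzymes of that route were followed in epididymal fat of mice kept on the diet labelled ND or on a high-fat diet (HFD). The 7 genes are Tst, Mpst, Cbs, Cth, Sqor, Ethe1 and Suox, out of 54532 gene identifiers counted. They were found through the Ensembl identifiers that GENCODE release M21 pairs with these symbols, and all 7 had enough counts to be among the 15751 genes tested. Tst was selected on its large fall in these same libraries, so its difference between the diets is given as a description with no test. The other 6 genes were listed for their role in the route.

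Cystathionine beta-synthase (Cbs) and cystathionine gamma-lyase (Cth) release hydrogen sulfide from cysteine and homocysteine, and mercaptopyruvate sulfurtransferase (Mpst) passes the sulfur of mercaptopyruvate on as a persulfide. In mitochondria, sulfide quinone oxidoreductase (Sqor) strips electrons from sulfide and hands them to ubiquinone, the persulfide dioxygenase Ethe1 turns the resulting glutathione persulfide into sulfite, and sulfite oxidase (Suox), a molybdenum enzyme, makes sulfate. Thiosulfate sulfurtransferase (Tst, also called rhodanese) moves sulfur between thiosulfate, glutathione and cyanide, and it is known from mouse genetics as an adipocyte gene linked to leanness.

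The samples were whole epididymal fat, the visceral depot beside the epididymis, from male C57BL/6J mice that received no drug. ND was a diet with 4.5% fat and HFD one with 60% fat, both given from 4 weeks of age for 16 weeks, and the HFD-fed mice were 20 weeks old at sampling. RNA-Seq covered 3 ND and 3 HFD samples. The sources do not say that each sample came from a separate mouse, so p-values measure the spread between these samples. The study sequenced the fat to look for adipocytes resembling those found beside tumors, and the comparison of the diets is used here to read the sulfur enzymes.

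The libraries held 16996896 to 18859320 counts, and 3 counts corresponded to between 0.150 and 0.181 CPM, which is the count scaled to the size of the library, a floor that covers counting error only. All 15 adipocyte markers examined were detected. Their summed level was 50229.5 to 65599.7 CPM on ND and 28066.6 to 49121.2 CPM on HFD, lowest in the third HFD library (HFD3). Of the 15 adipocyte markers, 3 (Cfd, Slc2a4 and Retn) fell. Cfd alone went from between 11768.4 and 15636.4 CPM to between 162.42 and 2503.99 CPM, a large part of the fall of the sum. Of 15 macrophage markers 11 rose and 0 fell (0 also at an unadjusted p under 0.05 in edgeR, and 0 with DESeq2 or limma-voom), and their sum went from between 2160.72 and 2276.52 CPM to between 5142.22 and 11424.4 CPM, highest in HFD3. Over all genes tested, 9.85% rose and 6.04% fell at an adjusted p under 0.05. No marker of either list was at 0 in all libraries. The third ND library (ND3) stood apart from the rest in markers of duct epithelium, with a sum over 11 markers of 250.871 CPM against 21.4832 to 37.2201 CPM in the other 5 libraries. Its counts of the duct markers Cdh16 and Foxj1 were 837 and 1090, against 0 counts of Cdh16 in every other library and at most 6 of Foxj1. Because the fat was sequenced in bulk, fewer cells of a type and less RNA per cell cannot be told apart in any value that follows.

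Tst and Mpst encode related sulfurtransferases and lie head to head on chromosome 15, with starts 509 bases apart in GENCODE M21 (GRCm38). Tst occupies chr15:78399556-78405907 on the minus strand and Mpst chr15:78406416-78414013 on the plus strand. The coding sequences of their transcripts Tst-201 and Mpst-201 were each 894 bases long, and 591 of 884 aligned bases (66.86%) were identical. The stretch below is shown because it holds the longest run that both coding sequences share, 18 bases given in capitals, and so shows how far apart the pair is for the counting of reads. It spans coding bases 643 to 708 of both genes, at chr15:78399918-78399983 (minus strand) and chr15:78413426-78413491 (plus strand), and is written 5′ to 3′ from the GENCODE M21 transcripts.
Tst: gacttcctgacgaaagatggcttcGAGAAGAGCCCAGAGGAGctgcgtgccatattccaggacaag
Mpst: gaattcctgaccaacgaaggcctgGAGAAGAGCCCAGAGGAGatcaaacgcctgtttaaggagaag

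RefSeq promoter windows (GRCm38.p6, 250 bases before to 50 after a listed start) were matched for 5 of the 7 genes, namely Mpst, Cbs, Sqor, Ethe1 and Suox. Those of Mpst and Sqor, which fell on HFD, and of Ethe1, which did not, are printed as the sequence beside which the diet values can be read. Mpst has 3 listed starts and Ethe1 has 2. The windows shown are chr15:78406551-78406850 (plus strand) for Mpst, chr2:122771463-122771762 (plus strand) for Sqor and chr7:24587293-24587592 (plus strand) for Ethe1. The Mpst and Sqor windows shown lie inside their GENCODE genes, downstream of the first start of each. All 3 Mpst windows begin after the GENCODE start of Mpst, so none covers the bases between the starts of Tst and Mpst. Capitals mark matches on either strand to the motifs searched.
Mpst: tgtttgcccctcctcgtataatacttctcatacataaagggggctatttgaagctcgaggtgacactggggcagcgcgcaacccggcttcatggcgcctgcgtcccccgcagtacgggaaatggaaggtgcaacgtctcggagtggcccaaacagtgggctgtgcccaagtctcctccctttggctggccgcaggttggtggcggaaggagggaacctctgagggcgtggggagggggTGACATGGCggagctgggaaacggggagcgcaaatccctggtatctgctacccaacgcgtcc
Sqor: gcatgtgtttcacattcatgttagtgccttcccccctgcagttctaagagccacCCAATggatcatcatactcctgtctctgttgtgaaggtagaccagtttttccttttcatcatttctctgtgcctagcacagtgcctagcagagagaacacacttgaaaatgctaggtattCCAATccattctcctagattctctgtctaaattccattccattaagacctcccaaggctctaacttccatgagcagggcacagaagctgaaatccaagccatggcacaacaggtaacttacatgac
Ethe1: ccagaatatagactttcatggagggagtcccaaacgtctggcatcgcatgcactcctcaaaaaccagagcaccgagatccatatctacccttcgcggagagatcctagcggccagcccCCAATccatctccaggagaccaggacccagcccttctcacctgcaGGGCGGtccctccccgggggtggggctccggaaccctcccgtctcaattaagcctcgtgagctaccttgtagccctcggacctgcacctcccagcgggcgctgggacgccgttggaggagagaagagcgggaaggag

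The motifs were the GC box GGGCGG, the CCAAT box CCAAT, the E-box CACGTG, the nuclear receptor hexamer AGGTCA and the antioxidant response element core TGACNNNGC. They matched 35.66%, 37.41%, 7.15%, 16.26% and 12.39% of all 32851 RefSeq windows of this length. The Mpst window shown, chosen as the window of that gene with a match, held 1 antioxidant response element core, while the other windows of Mpst held no match. The Sqor window held 2 CCAAT boxes and was 45% G and C, against a median of 52.67% over all windows. The Ethe1 window shown, at the start that matches the GENCODE gene, held 1 GC box and 1 CCAAT box, and the other (chr7:24593658-24593957, plus strand) held 3 GC boxes. Suox had the window richest in G and C among the 5 genes, at 73.33%, with 5 GC boxes and 1 CCAAT box, and the Cbs window held 2 GC boxes, 2 CCAAT boxes and 1 E-box. No window of the 5 genes held AGGTCA, which says only that these letters were not in these windows.

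Tst (ENSMUSG00000044986) was counted 1481, 1155 and 1772 times in ND replicates 1 to 3 (ND1 to ND3) against 117, 135 and 80 times in HFD replicates 1 to 3 (HFD1 to HFD3). Every HFD library was far below every ND library, and the lowest ND library held more than the 3 HFD libraries together. Per transcript length, the level went from 25.2 ± 3.30 FPKM on ND to 2.03 ± 0.563 FPKM on HFD (mean ± SD, n = 3 each), where FPKM divides the fragments of a gene by its length and by the size of the library. In CPM the HFD mean was 8.12% of the ND mean, 12.3-fold lower. The fitted log2 fold change, HFD over ND throughout, was -3.62 (SE 0.23). Of the 15751 genes tested, 41 had a lower log2 fold change, and among the 12524 that code for protein and averaged over 1 on the log2 CPM scale there were 26. Without ND3 the log2 fold change of Tst was -3.56, and without HFD3 it was -3.45. On the log2(FPKM + 1) scale, which understates changes of low genes, it was -3.12.

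**Figure D1:**
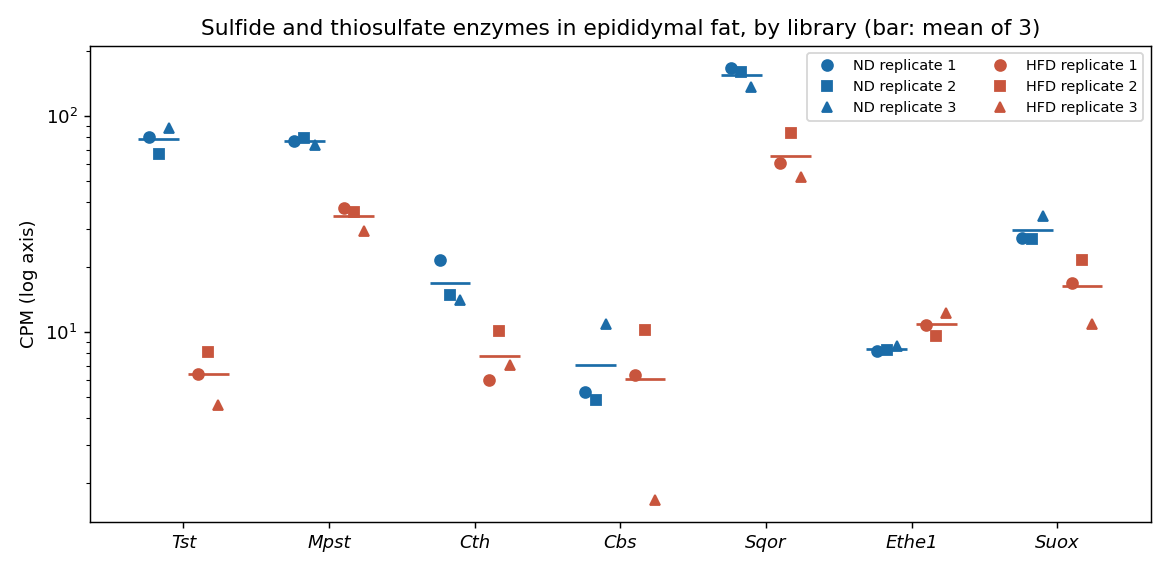
CPM of the 7 enzymes in each of the 6 libraries on a log axis, with ND in blue, HFD in red, a marker shape for each replicate and a bar at the mean of 3. The HFD points of Tst lie between 4.61 and 8.13 CPM, below the ND points at 67.0 to 88.6 CPM, while the points of Cbs from both diets overlap and those of Ethe1 are higher on HFD.

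Among the 6 other enzymes, 3 fell on HFD (Mpst, Cth and Sqor), 0 rose and 3 did not pass edgeR's quasi-likelihood test at an adjusted p of 0.05. The number that rose was also 0 at an unadjusted p under 0.05, with DESeq2 and with limma-voom. Over all genes tested, 15.9% were called in either direction, 6.04% lower and 9.85% higher. The median log2 fold change of the 6 was -0.99, against 0.0074 over all genes tested. In 5 of the 6 the diets did not overlap in CPM, which held for 40.9% of all genes tested. Leaving out ND1 or HFD1 left 1 of the 6 called, Mpst, while calls over all genes dropped from 2504 to 492 and 474.

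Of the 3 genes for sulfide production, Mpst (ENSMUSG00000071711) had the highest level per length. Its counts were 1421, 1362 and 1466 under ND against 689, 598 and 512 under HFD. The ND libraries were close to each other, and every HFD library was lower. Mpst fell from 36.1 ± 1.66 to 16.1 ± 2.05 FPKM (n = 3 each, as for all values below), and its log2 fold change was -1.15 (SE 0.13, edgeR adjusted p = 0.00563). Its HFD mean in CPM was 45.0% of the ND mean. Mpst passed the threshold under every alternative run, and with any library left out the adjusted p lay between 0.00198 and 0.0380.

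Cth (ENSMUSG00000028179, chr3:157894248-157925077, minus strand), the lyase that also makes cysteine from cystathionine, was counted 399, 257 and 282 times under ND against 110, 168 and 122 times under HFD. ND1 was well above the other ND libraries, and no HFD library reached the ND range. It fell from 6.13 ± 1.51 to 2.78 ± 0.773 FPKM, a log2 fold change of -1.13 (SE 0.26, edgeR adjusted p = 0.0294). This call was lost when any library other than HFD2 was left out. The adjusted p was then 0.104 without ND1, 0.0776 without ND2, 0.0565 without ND3, 0.109 without HFD1 and 0.0561 without HFD3.

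Cbs (ENSMUSG00000024039, chr17:31608894-31637238, minus strand), the first enzyme of transsulfuration, was counted 98, 84 and 219 times under ND against 116, 169 and 29 times under HFD. ND3 held more than the other ND libraries, HFD3 held the least of all 6, and the diets overlapped. The levels were 2.13 ± 1.01 FPKM on ND and 1.82 ± 1.28 FPKM on HFD, with a log2 fold change of -0.22 (SE 0.61, edgeR adjusted p = 0.833). The sign turned without ND3 (log2 fold change 0.23) and without HFD3 (0.22). ND3, where Cbs was highest on ND, is also the library with the duct epithelial markers, and the part of those cells in the Cbs count was not tested.

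Sqor (ENSMUSG00000005803, chr2:122765237-122809569, plus strand), which opens the oxidation of sulfide, had the most counts of the 7. Its counts were 3109, 2746 and 2737 under ND against 1105, 1385 and 912 under HFD. The diets were well apart, and as for Tst HFD2 was the highest and HFD3 the lowest HFD library. It fell from 38.4 ± 4.28 to 16.1 ± 3.97 FPKM, a log2 fold change of -1.24 (SE 0.19, edgeR adjusted p = 0.0103), to 42.3% of the ND mean in CPM. Without ND1 or HFD1 the size of the fall was kept (log2 fold change -1.18 and -1.21) and the adjusted p was 0.0508 and 0.0567.

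Ethe1 (ENSMUSG00000064254, chr7:24587543-24608925, plus strand), the next enzyme after Sqor, was the only member of the 7 with a positive log2 fold change. Its counts were 152, 143 and 172 under ND against 198, 159 and 212 under HFD. In raw counts HFD2 lay within the ND range, but scaled to library size every HFD library was above every ND library. The levels were 5.72 ± 0.0927 FPKM on ND and 7.35 ± 0.878 FPKM on HFD, with a log2 fold change of 0.38 (SE 0.17) that did not pass the test (edgeR adjusted p = 0.158). An exon of Ethe1 overlaps the antisense gene Zfp575, and the counting is not stated to use strand, so reads of the overlap cannot be assigned to either with certainty.

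Suox (ENSMUSG00000049858, chr10:128669894-128674073, minus strand), the last step to sulfate, was counted 504, 465 and 692 times under ND against 308, 358 and 189 times under HFD. ND3 was highest, HFD3 was lowest, and the diets did not overlap. The levels were 12.0 ± 1.64 FPKM on ND and 6.61 ± 2.16 FPKM on HFD, with a log2 fold change of -0.85 (SE 0.25, edgeR adjusted p = 0.0597). The gene passed the threshold with DESeq2 (adjusted p = 0.0159), with limma-voom (0.0481) and without HFD2 (0.0159).

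The HFD libraries held the same standing in several of the enzymes. HFD3 was the lowest HFD library in 5 of the 7 genes and HFD2 the highest in 5, by CPM. On ND, ND3 was the highest in 4 of the 7 and the lowest in 3, so its standing differed between the enzymes. These counts include Tst, and the same counts over all genes tested were not made. HFD3 was also the library with the lowest adipocyte sum and the highest macrophage sum, and HFD2 the HFD library with the highest adipocyte sum and the lowest macrophage sum. The part of cell makeup in the levels of the enzymes was not tested. Without HFD3 the log2 fold changes of Mpst, Cth, Sqor and Suox were -1.07, -1.08, -1.12 and -0.64. Without ND3, the library with the duct markers, those of Mpst, Sqor, Ethe1 and Suox were -1.21, -1.35, 0.36 and -0.75, with Mpst and Sqor still called.

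The levels per length ranked differently on the 2 diets. On ND the order from high to low was Sqor, Mpst, Tst, Suox, Cth, Ethe1 and Cbs. The ranges of Sqor and Mpst overlapped, as did those of Cth and Ethe1, and all other neighbours in this order were apart. On HFD the order was Mpst, Sqor, Ethe1, Suox, Cth, Tst and Cbs. Here Mpst and Sqor, Ethe1 and Suox, Cth and Tst, and Tst and Cbs overlapped, and only Sqor over Ethe1 and Suox over Cth were apart. Tst made up 20.01% of the summed FPKM of the 7 on ND and 3.84% on HFD. The share of Ethe1 went from 4.55% to 13.9%, and those of Mpst (28.7% and 30.5%) and Sqor (30.6% and 30.5%) were close between the diets. These shares were not tested.

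**Figure D2:**
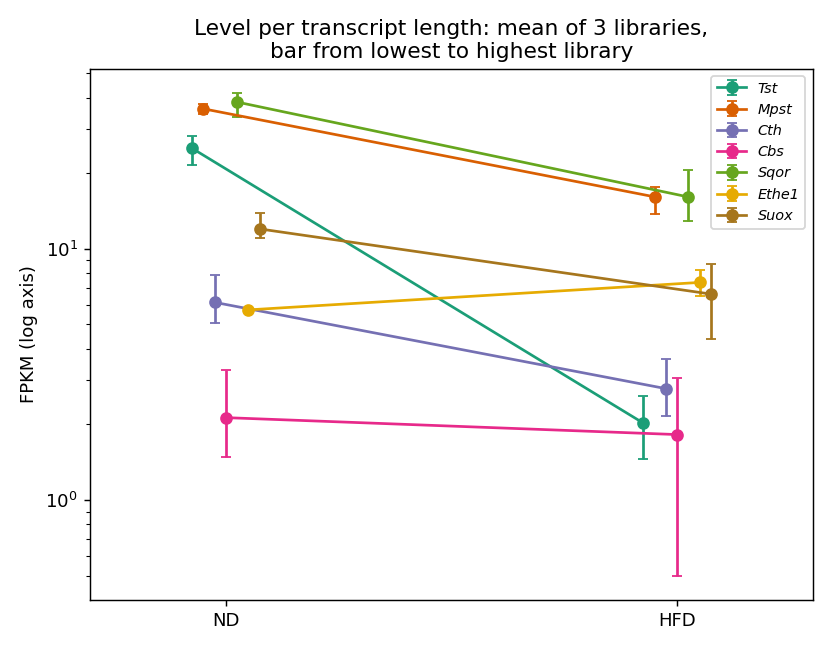
FPKM of the 7 enzymes on a log axis for ND and HFD, with points at the mean of 3 libraries and bars from the lowest to the highest library. The line of Tst is the steepest and crosses those of Suox, Ethe1 and Cth, going from the third level on ND to the sixth on HFD, while Mpst and Sqor stay the highest pair.

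Within each library, the ratio of Tst to Mpst in FPKM was 0.706, 0.575 and 0.819 on ND and 0.115, 0.153 and 0.106 on HFD. Both genes were lower on HFD, Tst by more, with a difference in the log2 ratio of -2.49, or between -2.65 and -2.37 with any library left out. This ratio holds Tst and is therefore a description. Sqor and Mpst kept a similar ratio, 1.06 ± 0.0843 on ND and 0.997 ± 0.195 on HFD (n = 3 each), and the diets overlapped. The ratio of Ethe1 to Sqor, successive enzymes of sulfide oxidation, was 0.135, 0.143 and 0.173 on ND and 0.493, 0.316 and 0.640 on HFD, with no overlap. It sets the only member with a positive log2 fold change (0.38, not called) over Sqor (-1.24), so it largely holds the fall of Sqor. The ratios of Sqor to Mpst and of Ethe1 to Sqor were not planned beforehand, and neither was tested.

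**Figure D3:**
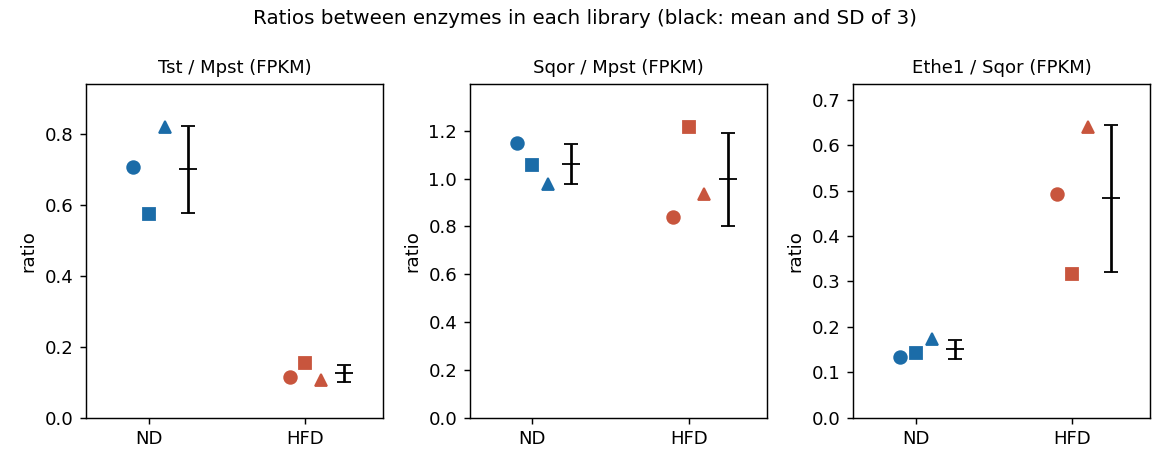
Ratios of FPKM within each library for Tst over Mpst, Sqor over Mpst and Ethe1 over Sqor, with ND in blue, HFD in red and the mean and SD of 3 libraries in black. Tst over Mpst is at most 0.153 on HFD and at least 0.575 on ND, Sqor over Mpst overlaps between the diets, and Ethe1 over Sqor is higher in every HFD library.

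Summed by role, the producing enzymes Cbs, Cth and Mpst came to 45.9, 44.5 and 42.7 FPKM on ND and 21.7, 23.6 and 16.8 FPKM on HFD. The enzymes on the oxidising side, Sqor, Ethe1, Suox and Tst, came to 84.4, 78.1 and 81.5 FPKM on ND and 31.0, 38.3 and 27.0 FPKM on HFD. Both sums were lower in every HFD library. Mpst was the largest part of the producing sum, with 36.1 FPKM on ND and 16.1 on HFD. Sqor was the largest part of the oxidising sum, with 38.4 and 16.1 FPKM. The sums thus mainly follow these genes, while Cbs was not called and Ethe1 was higher on HFD. The ratio of the oxidising to the producing sum was 1.83 ± 0.0775 on ND and 1.55 ± 0.108 on HFD with Tst counted, and 1.26 ± 0.0133 and 1.45 ± 0.105 without it. Thus the ratio was lower on HFD with Tst and higher on HFD without it. Tst was selected on its fall, so the sum and the ratio that hold it are a description. Without Tst the oxidising sum was 56.2 ± 2.64 FPKM on ND and 30.1 ± 5.19 FPKM on HFD. These sums and ratios were not tested.

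The levels were also set against the adipocyte markers of the same library. The marker sum includes Cfd, which itself fell, and a sum without Cfd was not taken. Tst was 1.39, 1.02 and 1.76 CPM per 1000 CPM of summed adipocyte markers on ND and 0.175, 0.166 and 0.164 on HFD, a log2 difference of -3.02. The HFD libraries were nearly equal on this scale and far below ND. The differences were -0.52 for Mpst, -0.50 for Cth, -0.63 for Sqor and -0.26 for Suox, and the diets overlapped for Cth and Suox. Ethe1 was higher on this scale by 1.01 and Cbs by 0.17, the latter with overlap. The geometric mean of the markers was also used in place of their sum, chosen after seeing the data. The log2 difference was then -2.83 for Tst, -0.34 for Mpst, -0.44 for Sqor and -0.08 for Suox. Of the genes lower on HFD, only Tst was without overlap between the diets on this second scale. Tst CPM over the geometric mean was 0.00522, 0.00463 and 0.00634 in HFD1, HFD2 and HFD3. The near-equality of the HFD libraries thus held against the marker sum but not against the geometric mean, where HFD3 was highest.

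Within 100 kb of Tst and Mpst, 5 other protein-coding genes were tested, of which 2 rose and 0 fell (0 also at an unadjusted p under 0.05 and by both other tools). Over all genes tested, 9.85% rose and 6.04% fell. Csf2rb2 and Csf2rb, beta subunits of cytokine receptors of myeloid cells, rose with log2 fold changes of 2.16 (SE 0.28, edgeR adjusted p = 0.00742) and 1.01 (SE 0.17, edgeR adjusted p = 0.0128). Csf2rb lost its call without ND1 (adjusted p = 0.0610), without HFD1 (0.0560) and on unfiltered FPKM (0.0518), which left 1 neighbour that rose. The pair are near-identical copies, so the split of reads between them is uncertain. Kctd17, the neighbour on the side of Mpst, had a log2 fold change of -0.38 (edgeR adjusted p = 0.201) and was called lower without HFD2 (-0.57, adjusted p = 0.0372). The log2 fold change was -0.65 for Tmprss6 (adjusted p = 0.314) and -0.18 for Il2rb (adjusted p = 0.540). The macrophage marker sum moved with the rise of the Csf2rb genes, and its part in their rise was not tested.

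**Figure D4:**
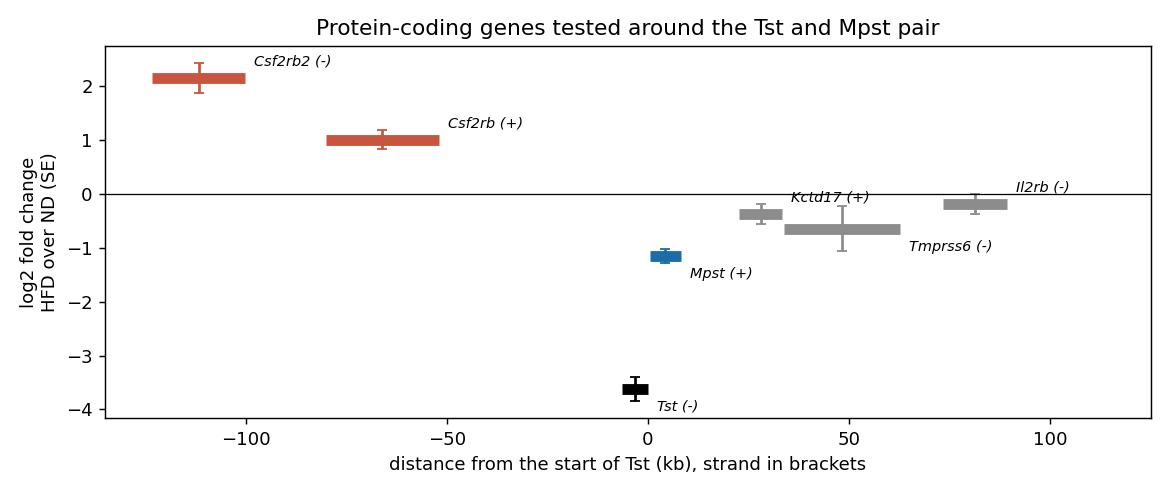
Log2 fold change (HFD over ND, bar for the standard error) of the 7 protein-coding genes tested around the Tst and Mpst pair, each drawn as a line over its extent in kb from the start of Tst, with lower calls in blue, higher in red, no call in grey and Tst in black without a test. Tst and Mpst sit side by side at -3.62 and -1.15, with Csf2rb2 and Csf2rb above 0.

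By the root mean square difference of centred log2(CPM + 0.5) over the 6 libraries, the patterns nearest to Tst among 12523 protein-coding genes were those of Angpt1 (0.241), Itm2a (0.330), Trp63 (0.370), Fam13a (0.401) and Cyp1a1 (0.420). Angpt1, a ligand of the Tek receptor of blood vessels, was counted 1180, 866 and 1031 times under ND against 117, 120 and 66 times under HFD. Angpt1 was chosen for its likeness over these same libraries, and on HFD both genes were highest in HFD2 and lowest in HFD3 in CPM. On ND both were lowest in ND2, but Angpt1 was highest in ND1 and Tst in ND3. Fam13a, a gene linked to fat distribution, was counted 3506, 3763 and 4626 times under ND against 570, 709 and 339 times under HFD. The log2 fold changes were -3.25 for Angpt1, -3.19 for Itm2a, -3.79 for Trp63 and -2.77 for Fam13a, given without a test because likeness to Tst chose them. Trp63 was low, with 120, 189 and 198 counts under ND against 12, 17 and 5 under HFD. Its log2 fold change lay between -3.87 and -0.95 over the alternatives that kept all libraries. Cyp1a1 was counted 138, 84 and 84 times under ND against 2, 11 and 1 times under HFD, so with 2 HFD libraries under the floor of 3 counts no fold is given for it. The 6 other enzymes were farther from Tst, from 1.16 for Sqor to 1.98 for Ethe1.

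A wider list of 57 sulfur genes and related enzymes was read in the same fit, of which 50 were tested, 5 rose and 9 fell. Their median log2 fold change was -0.17. Of these, 28.0% were called, against 15.9% of all genes tested, and the share that rose was close to the 9.85% over all genes. The counts for each role below stand against the same shares, with 6.04% lower over all genes. The 7 genes that did not pass the filter were Dao, Mat1a, Bhmt, Bhmt2, Gnmt, Gadl1 and Slc13a1. Among them Dao, the D-amino acid oxidase, had 696 counts in ND3, the library with the duct markers, and at most 1 in every other library. These counts moved widely when a library was left out, from 0 to 9 for genes that rose and from 0 to 15 for genes that fell, with 0 in both directions without ND1 or HFD1, and 2 in each without ND3. Every call of a gene of this list was thus lost without ND1 and without HFD1. Calls over all genes tested also dropped, from 2504 to 492 without ND1 and to 474 without HFD1.

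Among 11 relatives of Tst and other persulfide genes tested, 2 rose and 1 fell. Tstd3, which has a rhodanese domain like Tst, was counted 147, 134 and 88 times under ND against 228, 209 and 324 times under HFD. It thus rose where Tst was low, with a log2 fold change of 1.12 (SE 0.29, edgeR adjusted p = 0.0396), but it overlaps exons of Ccnc and Usp45, and the call was lost without ND1, ND2, ND3, HFD1 or HFD3. Tstd1 and Tstd2 had log2 fold changes of -0.44 (adjusted p = 0.692) and 0.07 (adjusted p = 0.753). Got1, an aminotransferase that can make mercaptopyruvate for Mpst from cysteine, rose with a log2 fold change of 1.44 (edgeR adjusted p = 0.0305), and Kyat3, a kynurenine aminotransferase, fell with -1.12 (adjusted p = 0.0498). Both calls were also lost without ND2 or ND3, and that of Got1 with limma-voom (adjusted p = 0.0526). Of the 8 methionine cycle genes tested 0 were called (0 also at an unadjusted p under 0.05 and by both other tools), and their log2 fold changes lay between -0.49 and 0.11.

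Cysteine that is not used for sulfide can be oxidised to taurine. Of 5 genes tested there, 2 fell and 1 rose. Csad, the sulfinate decarboxylase, and Fmo1, which oxidises hypotaurine, fell with log2 fold changes of -1.37 (edgeR adjusted p = 0.0300) and -1.66 (adjusted p = 0.0205), and the taurine transporter Slc6a6 rose by 1.76 (adjusted p = 0.0119). Without ND2 all 3 calls were lost, and without ND3 those of Csad and Fmo1. Cdo1, the cysteine dioxygenase, had 31296 to 45061 counts on ND and 7931 to 19002 on HFD, with a log2 fold change of -1.31 (edgeR adjusted p = 0.0534). DESeq2 and limma-voom each called 3 genes of this taurine role lower, against 2 with edgeR. Of 5 genes for cystine uptake and glutathione synthesis, Slc3a2, the heavy chain of the cystine transporter, rose by 0.63 (adjusted p = 0.0263) and 4 were not called. Among these 4, Slc7a11 was counted 17, 2 and 6 times under ND against 37, 22 and 137 times under HFD (edgeR adjusted p = 0.0619). The diets did not overlap in CPM, but with ND2 under the floor of 3 counts no fold is given. DESeq2 called 2 genes of this role higher. The call of Slc3a2 was also lost without ND2 or ND3.

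Suox needs the molybdenum cofactor. Of 7 genes for that cofactor and its other enzymes, the first synthesis gene Mocs1 fell with a log2 fold change of -0.76 (edgeR adjusted p = 0.0344). The amidoxime-reducing enzymes Marc1 and Marc2 moved apart, with log2 fold changes of 2.40 (adjusted p = 0.0134) and -0.68 (adjusted p = 0.0470). The calls of Mocs1 and Marc2 were also lost without ND2 or ND3, and that of Marc2 without HFD3. Of 9 genes for the use and transport of sulfate, Papss1, which activates sulfate, fell by 0.42 on the log2 scale (adjusted p = 0.0466) and 8 were not called. Its call was lost in 11 of the 17 alternatives, among them limma-voom (adjusted p = 0.0502), no filter on counts (0.108) and every library left out other than HFD2 (0.0573 to 0.153).

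Sqor passes electrons to ubiquinone, and so do other enzymes of the inner mitochondrial membrane. Of 5 such enzymes tested, 3 fell and 0 rose (0 also at an unadjusted p under 0.05 and by both other tools), with a median log2 fold change of -1.78. Choline dehydrogenase (Chdh) was counted 1806, 1433 and 2493 times under ND against 279, 568 and 142 times under HFD. As with Sqor, HFD2 was the highest and HFD3 the lowest HFD library, and the log2 fold change was -2.41 (SE 0.48, edgeR adjusted p = 0.0203). Glycerol-3-phosphate dehydrogenase (Gpd2) fell by 1.82 (adjusted p = 0.0188) and proline dehydrogenase (Prodh) by 1.78 (adjusted p = 0.0148) on the log2 scale. Without ND2 only Gpd2 of these 3 was still called, without ND3 Chdh lost its call, and without HFD3 Gpd2 did. Dhodh and Etfdh had log2 fold changes of -0.51 (adjusted p = 0.0565) and -0.27 (adjusted p = 0.316).

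**Figure D5:**
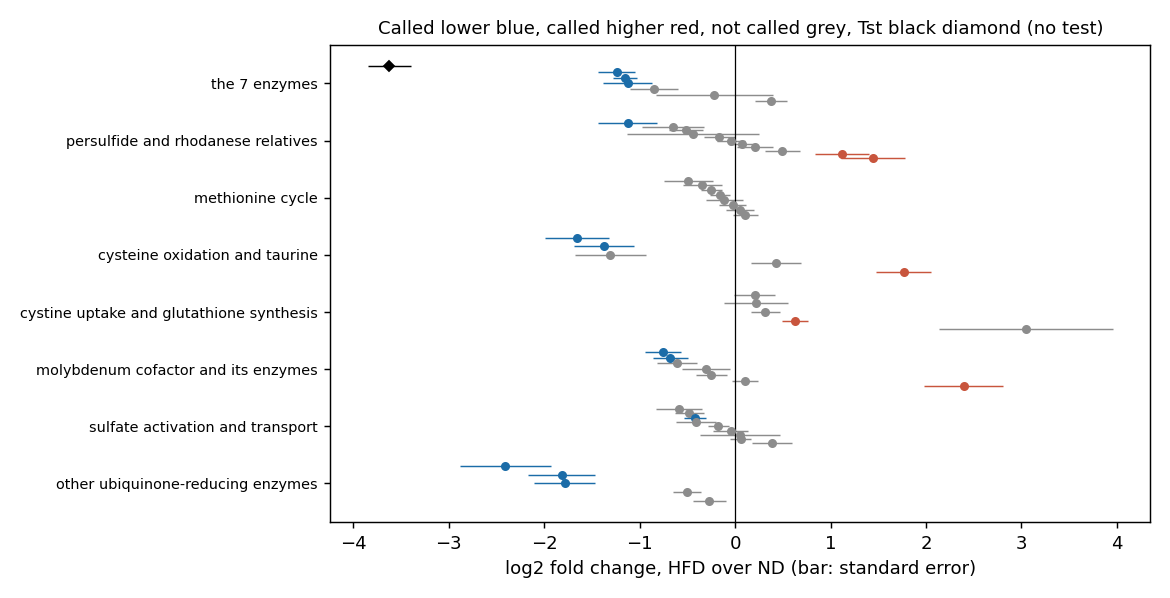
Log2 fold change (HFD over ND, bar for the standard error) of the 7 enzymes and of the 50 genes tested from the wider list, grouped by role, with lower calls in blue, higher in red, no call in grey and Tst as a black diamond without a test. Tst lies at -3.62, beyond every other gene shown on the lower side, and the other enzymes that reduce ubiquinone all lie below 0.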

How the data were processed

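RNA of epididymal fat was sequenced from 3 ND and 3 HFD samples as NEBNext Ultra libraries, a kit not stated to keep strand. Diet and replicate number came from the sample titles. The authors deposited raw counts per gene for 54532 identifiers, not normalized, and, beside them, FPKM values of each gene and library. The paper's methods name TopHat and Cufflinks on GRCm38, while the submitters' processing notes list CASAVA 1.8, fastp, HISAT2 2.0.5, featureCounts 1.5.0-p3, DESeq2 1.20.0 and the builds GRCh38 and hg38. The identifiers are mouse Ensembl identifiers, and 54495 were found in GENCODE M21. Which pipeline made the counts was not settled, and multi-mapped reads of paralogs or overlapping genes may have been handled differently by each.

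Diets were compared in R 4.3.3 with the quasi-likelihood F-test of edgeR 4.0.16 (robust glmQLFit), TMM scaling, filterByExpr, diet as the only factor and Benjamini-Hochberg adjustment over 15751 genes at 0.05. CPM used TMM-scaled totals, and ± is the SD. The SE of a log2 fold change was taken as its size divided by the square root of the edgeR F statistic. For Tst it is given as a description and not read as a test. With 3 against 3 the smallest p of an exact permutation test is 0.1, and it was not used. Levels of different genes were compared only in FPKM. Named genes were the 7 enzymes, per role of the list up to 2 called genes in each direction with the largest change, the 5 genes most like Tst, and the tested neighbours. Tstd1, Tstd2, Cdo1, Slc7a11, Prodh, Dhodh and Etfdh were named after their values were seen. The members and lists were chosen with earlier results of these data known. The alternatives tried were limma-voom (limma 3.58.1), DESeq2 1.42.0 and its size factors, library size only, no filter, at least 10 counts in 3 libraries, robust=FALSE, limma on log2(FPKM + 1) where 3 libraries reached an FPKM of 0.5, a pseudocount of 0.1, no FPKM filter, the replicate number as a block and each library left out. The code was tested on simulated data. Subcutaneous fat was not analysed here.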

Additional observations from a re-analysis of the deposited data

How the results depend on the processing

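With a library left out, the called members other than Tst numbered 1 to 4 against 3, with 1 without ND1 and 1 without HFD1, and 2 to 4 under the other alternatives. All genes called numbered 474 (without HFD1) to 3940 (without HFD2) against 2504, with 492, 591 and 1003 without ND1, ND2 and ND3. They numbered 3666 with DESeq2 and 649 with limma on unfiltered log2(FPKM + 1). In the wider list, genes that rose numbered 0 to 9 against 5 with a library left out (0, 1 and 2 without ND1, ND2 and ND3, 0 without HFD1, 9 without HFD2). Genes that fell numbered 0 to 15 against 9 (0, 1 and 2 without ND1, ND2 and ND3, 0 without HFD1, 15 without HFD2). On unfiltered FPKM 1 rose and 1 fell, and without a filter on counts 4 fell. The fit without a library has fewer samples. The cause of the other shifts was not tested.

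The log2 fold change of Tst stayed between -3.83 and -3.12, and that of Cbs turned to 0.22 or 0.23, within -0.81 to 0.23 over the fits without a library. Cth lost its call on unfiltered FPKM (adjusted p = 0.0834). Same-numbered libraries did not deviate together (correlations of -0.086, -0.056 and -0.0053). With the replicate number as a replicate block, 1886 genes were called, 1693 of them in both fits, 2 of the 6 members were called (Cth not, adjusted p = 0.0669), and 3 list genes rose and 9 fell. Against the geometric mean of the adipocyte markers, chosen after seeing the data, Sqor moved from -0.63 to -0.44.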
